A study of Bos taurus with 13 samples.

Results

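The gene *ASIP* and the 4 genes around it on bovine chromosome 13, *RALY*, *EIF2S2*, *AHCY* and *ITCH*, were taken by name from the count tables, and all 5 were found among 16095 named genes. *ASIP* was selected on its measured levels in the high and low groups of these same cows, so its contrast is described here without a test, while the neighbours were taken for their position. Blood of Italian Red Pied cows (Italian Simmental in the methods of the study) was drawn from the tail vein into PAXgene tubes, which preserve RNA, and sequenced without removal of globin RNA. The high group held 7 cows (replicates 1 to 7) from the upper end of the ranking by cortisol in milk, and the low group held 6 cows (replicates 8 to 13) from the lower end. The methods of the study describe more cows at each end than the samples used here hold. Each sample was labelled as a separate sample of 1 group, no treatment was named, the cows were lactating and clinically healthy, and age, sire and coat colour were not given in the sources used here. The tissue was whole blood, a mixture of cell types, so that fewer cells of a type and less RNA per cell cannot be told apart.

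*ASIP* encodes the agouti signalling protein, a secreted protein that blocks the melanocortin receptor MC1R on pigment cells and so shifts the pigment they make from dark to pale. It is a textbook case of a gene whose expression depends on what lies next to it. In mouse and sheep, rearrangements that join *ASIP* to the promoter of a neighbour, *Raly* in the lethal yellow mouse and *ITCH* in white sheep, make it active in many tissues. The neighbours themselves have other roles. *RALY* encodes an RNA-binding protein of the hnRNP family, *EIF2S2* the beta subunit of translation initiation factor eIF2, *AHCY* the enzyme that breaks down S-adenosylhomocysteine after each methyl transfer, and *ITCH* a ubiquitin ligase that restrains T cell activation. Gene counts carry no information on the sequence or the copy number of the region.

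On the UMD3.1 build that the count tables use, the 5 genes followed each other on chromosome 13. *RALY* (plus strand) ran from 63953596 to 64043571 with 9 exons, and *EIF2S2* (minus strand) from 64050711 to 64069300 with 9 exons. *ASIP* (plus strand) ran from 64234645 to 64239783, with 3 exons that add up to only 402 bases. This length is a multiple of 3 (134 codons), as are those of *RALY*, *AHCY* and *ITCH* and of 44.6% of all named genes, and reads on exons outside the model were not counted as *ASIP*. *AHCY* (minus strand) ran from 64258560 to 64274274 with 10 exons, and *ITCH* (plus strand) from 64357862 to 64462219 with 25 exons. The nearest neighbour of *ASIP* was *AHCY*, at a distance of 18777 bases, followed by *ITCH* at 118079, *EIF2S2* at 165345 and *RALY* at 191074 bases. No exon of the 5 genes overlapped an exon of another feature in the tables on either strand, unnamed genes included. The RefSeq gene table of the ARS-UCD2.0 assembly gave the same order of the 5 genes, with 2 lncRNAs, 1 snoRNA and 1 pseudogene among them.

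Reads counted on named genes were between 12198355 and 23709740 per cow in the high group and between 11045599 and 28124575 in the low group. Levels are given as CPM, counts per 1000000 counts of the library after TMM scaling (a correction for the make-up of each library), and levels of different genes were compared as RPKM, which is CPM per 1000 bases of the gene model.

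*ASIP* was detected in all 13 cows, at a low level in 11 and at a far higher one in the other 2, both of the low group. In the high group *ASIP* had between 17 and 40 counts per cow (median 33). In the low group, replicates 8, 9, 10 and 12 had 38, 41, 25 and 17 counts. Replicate 11 had 913 counts and replicate 13 had 919, and together these 2 cows held 84.5% of all *ASIP* counts in the study. As levels, the high group ran from 1.07 to 2.20 CPM (median 1.79) and the 4 low cows from 1.46 to 3.08 CPM, so these 11 cows overlapped across the groups. Replicate 11 reached 33.4 CPM (95% exact Poisson interval 31.3 to 35.7) and replicate 13 reached 55.3 CPM (51.8 to 59.0), intervals that cover counting error only. Relative to the median of the other 11 cows (1.59 CPM), the level was 21.1 times as high in replicate 11 and 34.8 times as high in replicate 13. The difference between these 2 cows was itself larger than counting error, since their intervals did not overlap.

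**Figure D1:**
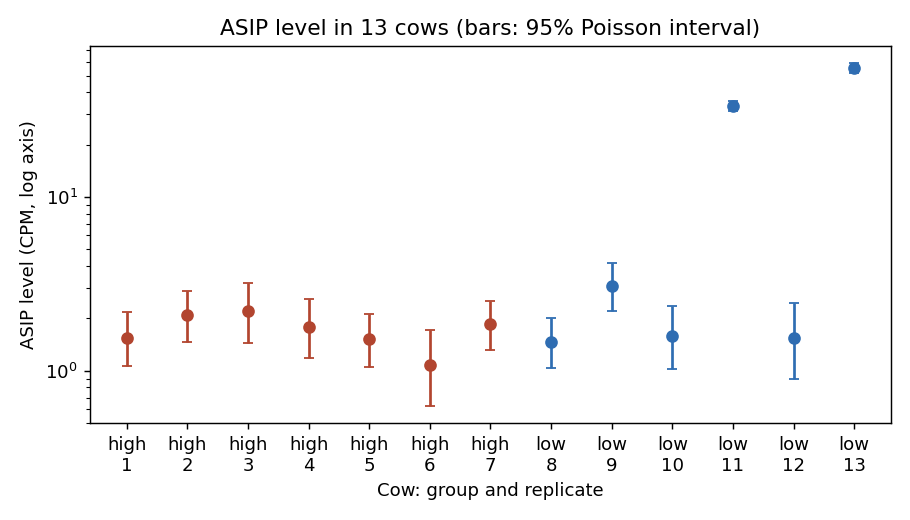
Level of *ASIP* in CPM on a log axis for each of the 13 cows, high group in red and low group in blue, with 95% exact Poisson intervals as bars. Replicates 11 and 13 of the low group sit at 33.4 and 55.3 CPM, and the other 11 cows between 1.07 and 3.08 CPM.

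Among the 11 cows with little *ASIP*, the variance of its level was 2.34 times the counting variance, against 29.4 times for *EIF2S2*, 174 times for *RALY*, 208 times for *ITCH* and 330 times for *AHCY*. The high counts of the neighbours make their counting variance small. On the scale of the coefficient of variation of CPM, *ASIP* (29.5%) lay below *ITCH* (35.1%) and above *RALY*, *AHCY* (14.6%) and *EIF2S2* (12.1%) in these cows. The highest of the 11 was replicate 9 of the low group with 3.08 CPM (2.21 to 4.18), and the lowest was replicate 6 of the high group with 1.07 CPM (0.625 to 1.72).

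Per length of the gene model, *AHCY* stood highest with a median of 433 RPKM over the 13 cows, then *RALY* with 361, *EIF2S2* with 64.0, *ITCH* with 18.1 and *ASIP* with 4.45 RPKM. *AHCY* exceeded *RALY* in 12 of 13 cows, but their ranges overlapped (319 to 476 and 230 to 442 RPKM). *RALY* exceeded *EIF2S2*, and *EIF2S2* exceeded *ITCH*, in all 13 cows. *ITCH* exceeded *ASIP* in 11 cows. In the remaining 2, replicates 11 and 13 of the low group, *ASIP* reached 83.2 and 137 RPKM and so passed not only *ITCH* (23.1 and 10.3 RPKM) but also *EIF2S2* (68.6 and 73.1 RPKM). RPKM depends on how much UTR each gene model includes, which was not tested.

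The high and low groups differed in *ASIP* by a log2 fold change of -3.23 (standard error 0.84) in the fit by edgeR. This value is a description, since the gene was chosen for it. Without replicates 11 and 13, a choice made after the values were seen, it was -0.15 (standard error 0.31), so the contrast rested on these 2 cows. All 7 high cows were below the median of the low group (2.33 CPM), which includes these 2 cows. The median of the other 4 low cows was 1.56 CPM, below that of the high group (1.79 CPM). The groups overlapped for each of the 5 genes, while over all genes tested 0.0272% had groups that did not overlap.

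None of the 4 neighbours passed a test of the high against the low group. The quasi-likelihood test of edgeR called 0 of the 4 at an adjusted p of 0.05, and 0 of them reached 0.05 without adjustment. Over all 11033 genes tested, 0% were called, 0.934% had an unadjusted p below 0.05 with higher expression in the high group and 1.16% with lower expression there. The limma-voom test also called 0 genes, and DESeq2 called 1, *CYP4X1*, a cytochrome P450 gene outside the region.

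*RALY*, upstream of *ASIP*, ran from 305 to 531 CPM in the high group (median 465) and from 413 to 586 CPM in the low group (median 507). Replicate 4 of the high group was the lowest cow and replicate 13 of the low group the highest. The log2 fold change was -0.14 (standard error 0.13, interval of 1.96 standard errors from -0.39 to 0.12), with an adjusted p of 0.998 from edgeR and a two-sided exact permutation p of 0.327, from 1716 possible splits of the cows.

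*EIF2S2*, which had the lowest coefficient of variation of the 5 genes over all 13 cows (11.8%, next *AHCY* with 13.9%), had 76.6 to 107 CPM in the high group (median 89.4) and 69.4 to 104 CPM in the low group (median 95.5). Its log2 fold change was -0.01 (standard error 0.11, interval from -0.22 to 0.20, adjusted p 0.998 from edgeR, exact permutation p = 0.987), and its sign changed with the cows included. The interval leaves room for a change of about 0.2 on the log2 scale in either direction, and not for one of the size seen for *ASIP*.

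*AHCY*, the gene closest to *ASIP*, had the smallest p of the neighbours. It ran from 678 to 996 CPM in the high group (median 798) and from 785 to 1012 CPM in the low group (median 938), and the high cows were below the low median in 6 of 7 cases. The log2 fold change was -0.17 (standard error 0.12, interval from -0.40 to 0.06). Neither edgeR (unadjusted p 0.158, adjusted p 0.998) nor the exact permutation test (p = 0.118) separated the groups.

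*ITCH* varied most among the neighbours, with 47.9 to 173 CPM in the high group (median 90.1) and 53.6 to 120 CPM in the low group (median 97.7). Both ends of the range, replicates 5 and 4, were high cows. The log2 fold change was 0.05 (standard error 0.25, interval from -0.45 to 0.55, adjusted p 0.998 from edgeR, exact permutation p = 0.999), and with replicate 4 of the high group left out it turned to -0.17.

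**Figure D2:**
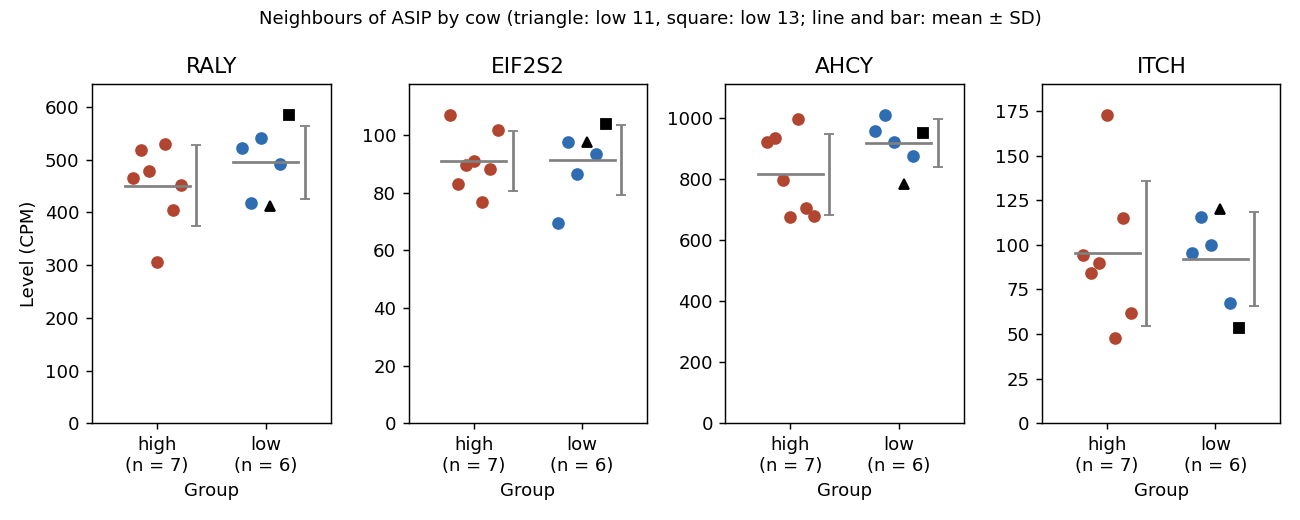
Level in CPM of *RALY*, *EIF2S2*, *AHCY* and *ITCH* in each cow of the high (red) and low (blue) groups, with the mean as a line and the SD as a bar. The black triangle is replicate 11 and the black square replicate 13 of the low group, the cows with 33.4 and 55.3 CPM of *ASIP*, and the groups overlap for every gene.

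The question whether cows with much *ASIP* also differ in its neighbours was addressed by the place of replicates 11 and 13 among the 13 cows, as a description, because these cows are known only by the measured value. The neighbours did not share the pattern of *ASIP*, and the 2 cows were often at opposite ends. For *RALY*, replicate 11 had 413 CPM, place 11 counted from the highest, whereas replicate 13 had 586 CPM and was the highest of all, above the 305 to 542 CPM of the other 11 cows. For *ITCH* the order was turned round, with 120 CPM in replicate 11 (place 2) and 53.6 CPM in replicate 13 (place 12), both within the 47.9 to 173 CPM of the others. For *AHCY*, 785 CPM (place 10) and 952 CPM (place 4) fell within 678 to 1012 CPM. *EIF2S2* alone was above the median of the others in both cows, with 97.5 CPM (place 5) and 104 CPM (place 2), and these values too lay within the range of the other 11 cows, 69.4 to 107 CPM. Relative to the median of the other cows, the levels of the 4 neighbours lay between 0.570 and 1.28 times, beside 21.1 and 34.8 times for *ASIP*.

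Within the 11 other cows, no relation between *ASIP* and a neighbour passed a test. No test was run over all 13 cows, since they fall into separate clusters by *ASIP*. Of the 4 relations computed, the strongest was with *EIF2S2* (Pearson's *r* = 0.278, permutation p = 0.405; Spearman's rho = 0.391, permutation p = 0.234). The other values of *r* were 0.260 for *AHCY* (permutation p = 0.447), 0.118 for *ITCH* (permutation p = 0.732) and -0.0954 for *RALY* (permutation p = 0.757). The rho of *AHCY* was 0.0273 (permutation p = 0.946), that of *ITCH* 0.0818 (permutation p = 0.819) and that of *RALY* -0.209 (permutation p = 0.538). Without replicate 9 of the low group and replicate 6 of the high group, the cows farthest from the median of *ASIP*, *r* became 0.216 for *EIF2S2*, -0.463 for *AHCY*, 0.174 for *ITCH* and -0.210 for *RALY*, so that *AHCY* changed sign. Within the high group alone (7 cows) the values of *r* lay between -0.0905 and 0.187.

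The relation within these 11 cows was also examined over the whole table. Every gene was fitted on the level of *ASIP*, with the group as a term. In this fit edgeR called 0 of 11131 genes (0%) at an adjusted p of 0.05, and 2.52% reached 0.05 without adjustment. None of the 4 neighbours was among these. Their slopes, in log2 units per log2 unit of *ASIP*, were 0.15 for *EIF2S2* (standard error 0.17), 0.13 for *ITCH* (0.37), 0.11 for *AHCY* (0.19) and -0.09 for *RALY* (0.22), each with an adjusted p of 0.999. These slopes rest on 17 to 41 counts of *ASIP* per cow, where the variance of its level was 2.34 times the counting variance. The cows with much *ASIP* were left out of this fit, so it cannot decide whether they differ in other genes.

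Of the 6 pairs of neighbours, 2 had a permutation p below 0.05 across the 13 cows, with replicate 4 of the high group at the end of both relations. The pairs were examined after the values were seen. The share of all gene pairs that reach this threshold in these cows was not computed, so the count of 2 cannot be read as particular to these genes. *RALY* and *ITCH* ran in opposite directions (Pearson's *r* = -0.773, permutation p = 0.00189; Spearman's rho = -0.676, permutation p = 0.0134). *RALY* and *AHCY* ran together (*r* = 0.683, permutation p = 0.00748; rho = 0.648, permutation p = 0.0194). Replicate 4 had the lowest *RALY*, the lowest *AHCY* and the highest *ITCH* of all cows. Without it and replicate 13 of the low group, the cows farthest from the median of *RALY*, *r* was -0.531 for *RALY* with *ITCH* (permutation p = 0.0923) and 0.533 for *RALY* with *AHCY* (permutation p = 0.0931), so both relations rested in part on these cows. Without the same cows *RALY* with *EIF2S2*, which gave *r* = -0.218 over all 13 (permutation p = 0.471), had *r* = -0.609 (permutation p = 0.0471). Within the groups, *RALY* with *ITCH* gave *r* = -0.844 in the high group (exact permutation p = 0.0159, n = 7) and -0.744 in the low group (exact permutation p = 0.1, n = 6). *RALY* with *AHCY* gave 0.756 in the high group (exact permutation p = 0.0196, n = 7) and 0.333 in the low group (exact permutation p = 0.547, n = 6). The p-values of the 6 pairs were not adjusted. The summed level of 6 T cell markers was lowest of all cows in replicate 4 of the high group (1987 CPM) and highest in replicate 13 of the low group (3606 CPM). The summed level of 5 fibroblast markers was highest in replicate 4 (7.22 CPM). For neutrophil, B cell, NK cell and platelet markers, replicate 4 took place 12 of the 13 cows. The 4 cows with the least *ITCH*, replicates 5 and 7 of the high group and 12 and 13 of the low group, took the last 4 places of the 13 cows for the summed level of 5 monocyte markers (places 12, 10, 11 and 13). The gene *LYZ* carried most of this sum, with 24380 to 146435 counts per cow. The next, *CSF1R*, had 4006 to 11874 counts. The match did not hold at the upper end. Replicate 4 of the high group, with the most *ITCH*, took place 5 for monocyte markers. Replicate 1 of the high group took place 1 for these markers with 94.1 CPM of *ITCH*, the median of the 13 cows. The part of these cell types in the relations was not tested.

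**Figure D3:**
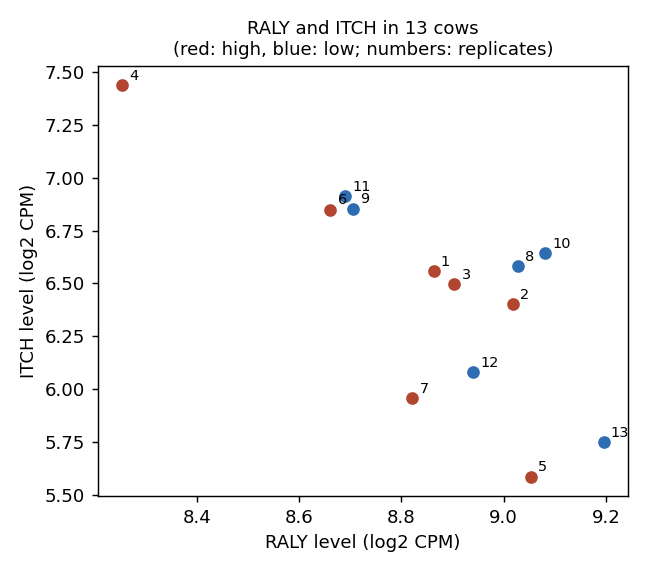
Level of *RALY* against that of *ITCH* in log2 CPM for the 13 cows, high group in red and low group in blue, with replicate numbers. Replicate 4 of the high group lies at the top left and replicate 13 of the low group at the bottom right, and *r* over all cows is -0.773.

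Within 1 Mb on either side of *ASIP*, the tables named 34 genes, of which 25 passed the filter on low counts. Besides *ASIP*, 24 genes were tested, and by edgeR 0 passed an adjusted p of 0.05. 1 had an unadjusted p below 0.05 (4.17%, against 2.09% of all genes tested). This was *CBFA2T2*, a transcriptional corepressor gene, at 0.63 on the log2 scale (standard error 0.29, unadjusted p 0.0442, adjusted p 0.998 from edgeR). At the other end stood *MYH7B*, a myosin heavy chain gene with 6 to 38 counts per cow, at -0.60 (standard error 0.32, unadjusted p 0.0822, adjusted p 0.998 from edgeR). Of the 24 genes, 18 had lower and 6 higher values in the high group, with a median log2 fold change of -0.05, beside 0.01 over all genes tested, of which 46.7% were lower.

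**Figure D4:**
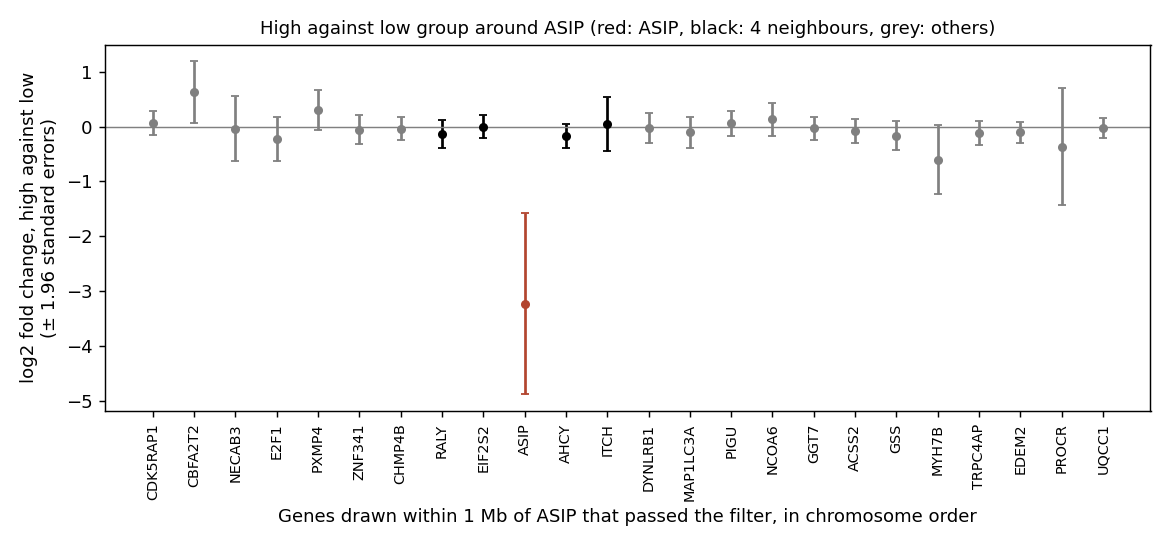
Log2 fold change of the high against the low group for *ASIP* (red), its 4 neighbours (black) and 19 other genes within 1 Mb (grey), in chromosome order, with bars of 1.96 standard errors. *ASIP* stands at -3.23 and the other 23 genes drawn between -0.60 and 0.63.

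In the same window, both replicates 11 and 13 lay inside the range of the other 11 cows for 18 of the 24 genes. Both were below the range for *PXMP4*, a peroxisomal membrane protein gene, with 2.89 and 2.41 CPM beside 3.14 to 5.23 CPM. Replicate 13 alone was above the range for *RALY*, for the cell cycle regulator *E2F1* (13.4 CPM beside 5.85 to 10.7 CPM) and for *ACSS2*, which makes acetyl-CoA from acetate (112 CPM beside 70.0 to 105 CPM). Replicate 11 alone was below it for *CDK5RAP1* (24.5 CPM beside 24.7 to 35.7 CPM). The genes on the far side of *ITCH*, from *DYNLRB1* to *GGT7*, had both cows within the range of the others. The 9 named genes of the window that did not pass the filter, among them the *BPIF* genes of airway secretions, had at most 24 counts in any cow.

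**Figure D5:**
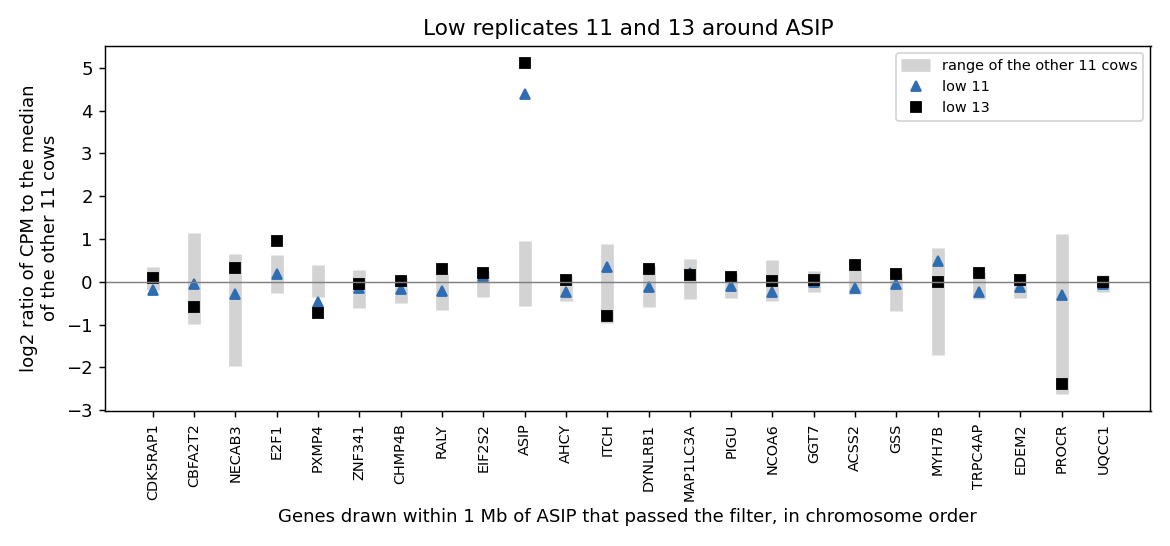
Log2 ratio of CPM in replicate 11 (triangles) and replicate 13 (squares) of the low group to the median of the other 11 cows, for 24 genes within 1 Mb of *ASIP* that passed the filter, with the range of the other 11 cows as grey bars. For *ASIP* both cows stand far above the grey bar, and for 18 of the other 23 genes drawn both lie within it.

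The genes most like *ASIP* across the 13 cows were not its neighbours. Ranked by Pearson's *r* of log2 CPM over 13 cows, which the 2 cows with much *ASIP* dominate, the first 5 of 11032 genes were *AACS* (0.857), *FAM78A* (0.830), *STMN1* (0.757), *MYL6B* (0.755) and *PCOLCE* (0.739). They lie on 5 different chromosomes, and none on that of *ASIP*. The ranking is a description, and no test was run on it. The changes were small beside that of *ASIP*. *AACS*, which encodes acetoacetyl-CoA synthetase, a cytosolic enzyme that uses ketone bodies for lipid synthesis, had 21.8 CPM in replicate 11 and 26.1 CPM in replicate 13, beside 12.5 to 19.0 CPM in the others. *STMN1*, which encodes the microtubule regulator stathmin, had 345 and 477 CPM beside 236 to 345 CPM, so that replicate 11 (place 3) lay within the range of the others. *MYL6B*, a myosin light chain gene, had the largest ratios of the 5, with 14.1 and 6.25 CPM beside 1.49 to 4.78 CPM. Over the other 11 cows Spearman's rho with *ASIP* was 0.382 for *AACS* and between -0.245 and 0.127 for the other 4, so the likeness came from the 2 cows. On the same scale *EIF2S2* took place 530 (*r* = 0.429), *RALY* place 2989 (0.160), *AHCY* place 3791 (0.106) and *ITCH* place 7747 (-0.136).

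The receptors on which the agouti protein acts were scarcely detected in this blood. Of 18 genes listed for melanocortin signalling 16 were named in the tables and 3 passed the filter. *MC2R*, *MC3R*, *MC5R* and the protease gene *PCSK2* had 0 counts in all 13 cows, where the upper limit compatible with no count, taken as 3, corresponds to between 0.107 and 0.272 CPM. *MC4R* had 1 count in a single cow. *MC1R*, the receptor of pigment cells, had 0 to 10 counts in the high group and 0 to 26 in the low group. The cows with much *ASIP* were at both ends, with 26 counts (0.952 CPM) in replicate 11, the highest of all, and 0 in replicate 13. *AGRP*, the brain relative of *ASIP*, had at most 5 counts. The 3 genes tested were *POMC*, the precursor of the melanocortins (log2 fold change -0.22, standard error 0.24), *ATRN*, the membrane protein attractin that agouti signalling needs (0.22, standard error 0.22), and *CREB1*, a cyclic AMP-responsive transcription factor (0.06, standard error 0.12). All 3 had an adjusted p of 0.998 from edgeR, 0 had an unadjusted p below 0.05, and the median of their log2 fold changes was 0.06.

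The functional partners of the neighbours were counted in the same way, from lists chosen with earlier results of these data known. For eIF2 and translation initiation, 18 of 19 genes were tested, 0 were called and 0 had an unadjusted p below 0.05 (median log2 fold change 0.01). The smallest p was that of *EIF2AK2*, the interferon-induced kinase that phosphorylates eIF2 (-0.58, standard error 0.30, unadjusted p 0.0660, adjusted p 0.998 from edgeR). *EIF2AK2* was also the single gene of this list with an unadjusted p below 0.05 for the slope on *ASIP* in the 11 cows (-0.96, unadjusted p 0.0240), beside 2.52% of all genes, and 0 passed the adjusted threshold. For the methionine cycle, in which *AHCY* works, 10 genes of 17 listed were tested and 0 called (median -0.01). 1 gene of these 10 in each direction had an unadjusted p below 0.05, beside 0.934% higher and 1.16% lower over all genes. *MTRR*, which reactivates methionine synthase, averaged 10.9 CPM ± 2.16 (SD, n = 7) in high cows against 8.53 CPM ± 1.28 (SD, n = 6) in low cows, which edgeR put at 0.35 on the log2 scale (standard error 0.16, unadjusted p 0.0405, adjusted p 0.998 from edgeR). *ADA*, which removes adenosine, a product of *AHCY*, averaged 69.3 CPM ± 17.4 (SD, n = 7) in high cows against 95.9 CPM ± 31.2 (SD, n = 6) in low cows, a change of -0.47 on that scale (standard error 0.19, unadjusted p 0.0270, adjusted p 0.998 from edgeR).

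For the hnRNP family, to which *RALY* belongs, 16 of 20 listed genes were tested, with 0 called, 0 with an unadjusted p below 0.05 and a median of -0.03. The smallest p was that of *HNRNPUL1* (-0.15, standard error 0.10, unadjusted p 0.150, adjusted p 0.998 from edgeR). *RALYL*, the closest relative of *RALY*, had 0 counts in all cows. For the NEDD4 family of ubiquitin ligases and partners of *ITCH*, all 18 genes were tested, with 0 called, 0 with an unadjusted p below 0.05 and a median of 0.02. *NEDD4* itself had the smallest p (0.47, standard error 0.27, unadjusted p 0.0995, adjusted p 0.998 from edgeR). *NDFIP1*, the gene of an adaptor that activates ITCH, stood at 0.14 (standard error 0.12), and *JUNB*, which encodes a substrate of ITCH, at 0.10 (standard error 0.16).

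The summed levels of markers of the cell types that blood holds were far above those of skin and fat markers in every cow, although single markers were scarce, such as the erythroid gene *SLC4A1* with 1 to 48 counts. Summed over 6 T cell markers the level ran from 1987 to 3086 CPM in the high group and from 2295 to 3606 CPM in the low group. The 3 neutrophil markers named in the tables ran from 2910 to 5881 and from 4193 to 7507 CPM, the 5 monocyte markers from 2670 to 7392 and from 2233 to 7322 CPM, and the 6 B cell markers from 1665 to 3332 and from 1627 to 3121 CPM. For 3 NK cell markers the ranges were 92.4 to 145 and 82.7 to 154 CPM, for 3 platelet markers 93.0 to 209 and 98.8 to 229 CPM, and for 5 erythroid markers 374 to 7837 and 137 to 569 CPM. The cows with much *ASIP* shared a place near the top for T cell markers (place 3 for replicate 11 and place 1 for replicate 13) and near the bottom for B cell markers (places 13 and 10) and NK cell markers (places 10 and 11). For neutrophil markers they took places 5 and 4. They were apart for monocyte markers (5982 CPM, place 4, and 2233 CPM, place 13), a sum carried mostly by *LYZ*. Their interferon response genes, 10 of 13 listed, summed to 1780 and 2626 CPM, within 1333 to 9299 CPM over all cows. The part of these cell types in the level of *ASIP* was not tested.

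Markers of skin and fat, tissues in which *ASIP* is known to be expressed, were low in all cows. Of 6 keratinocyte markers *KRT5*, *KRT14*, *KRT1* and *DSG1* had 0 counts in both replicate 11 and replicate 13. *KRT10* had 7 and 14 counts and *DSP* 0 and 4. The summed level was 0.256 and 1.08 CPM, within 0.189 to 2.78 CPM in the high group. Of 6 melanocyte markers *TYR* and *TYRP1* had 0 counts in all 13 cows and *DCT* and *MLANA* 0 in these 2, and the sum of 4.84 and 5.47 CPM, carried mostly by *PMEL*, lay within 4.00 to 9.13 CPM in the high group and 4.84 to 7.12 CPM in the low group. Of 5 fibroblast markers *LUM* had 0 counts in both, and the sum was 0.440 and 0.301 CPM, with 0 to 7.22 CPM over the high cows and 0.230 to 0.721 CPM over the low cows. Of 5 adipocyte markers *LEP* had 0 counts in all cows, and in these 2 *ADIPOQ* had 2 and 0 counts and *FABP4* 4 and 0. *PLIN1* had 63 and 46 counts, beside 26 to 63 over all cows, and *CIDEC* 17 and 18, beside 6 to 20. These counts were not scaled for the depth of each library. Replicate 11 had 3.15 CPM over all 5 markers, below the highest level of *PLIN1* alone in another cow (3.76 CPM). The adipocyte sum of 3.15 and 3.85 CPM lay within 2.15 to 4.80 CPM in the high group and 2.67 to 4.96 CPM in the low group.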

How the data were processed

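The authors deposited counts, the whole number of reads assigned to each gene name, without normalization. Per the file headers, featureCounts 1.4.6-p3 summed exons by gene name over Ensembl release 88 models for UMD3.1, with no strand option. The methods and the submitters' processing notes name STAR 2.7.3, Subread 1.6.5 and ARS-UCD1.2 instead, and positions here are those of the count tables. In all 13 headers the alignment lies in a folder named for goat and carries another animal number than the name of the table, so the link of each table to its cow and group rests on the labels alone. Genes without a name share 1 entry, with 13.9% to 16.7% of the counts of a cow, and it was left out.

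From the counts, TMM factors gave CPM, log2 CPM (with a prior of 2 counts) and, with the deposited length, RPKM. The contrast was fitted in edgeR 4.0.16 (quasi-likelihood, robust, R 4.3.3), keeping genes by filterByExpr (minimum count 10, total 15), with Benjamini-Hochberg adjustment over all genes tested. A standard error was obtained from the fold change (log2) and the F statistic. Correlations used 100000 resamples, and all permutations below 10 cows. Tests were tried on simulated counts first. Alternatives were DESeq2 1.42.0, limma-voom (limma 3.58.1), RLE factors, no filter, the log2 haemoglobin share as a covariate, and each cow left out. The fit without replicates 11 and 13 was added after the values were seen, and so were the 6 pairs of neighbours. The members, lists and named genes were chosen with earlier results of these data known. Named were the members, genes within 1 Mb, the 5 genes with the highest *r* with *ASIP*, and of each list the genes with an unadjusted p below 0.05 or the smallest p. *NDFIP1*, *JUNB*, *CYP4X1* and the genes at or near 0 were named after their values were seen. No 2 libraries held the same counts. Sequences of the 5 genes were not used here. Of the genes within 1 Mb of *ASIP*, 1 was kept in the counts over the window and is not reported here by its values.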

Additional observations from a re-analysis of the deposited data

How the results depend on the processing

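No paired analysis was possible because the cows carry the numbers 1 to 13 and the groups share none. The count of genes called between the groups was 0 in all alternatives except DESeq2, which called 1, and the count called for the slope on *ASIP* was 0 in all of its alternatives. Leaving out 1 cow at a time kept both at 0. The log2 fold change of *ASIP* was between -3.46 and -2.28 with 1 cow left out, between -3.23 and -1.77 in the other alternatives with all cows, and -0.15 without replicates 11 and 13, the cows that hold most of its counts. With 1 cow left out it ranged from -0.18 to -0.06 for *RALY*, from -0.22 to -0.13 for *AHCY*, from -0.067 to 0.0345 for *EIF2S2* and from -0.17 to 0.16 for *ITCH*. The sign of *EIF2S2* also changed with limma-voom (0.0013), with the haemoglobin covariate (0.0103) and without replicates 11 and 13 (0.0703), and that of *ITCH* with limma-voom (-0.0141). With the haemoglobin covariate *RALY* was -0.058 and *AHCY* -0.0507, while *ITCH* was 0.14. The adjusted p of the neighbours was between 0.893 and 1 over 19 alternatives for each. In the 11 cows, *r* with *ASIP* ranged with 1 cow left out from -0.307 to 0.0638 for *RALY*, from 0.146 to 0.404 for *EIF2S2*, from -0.00564 to 0.343 for *AHCY* and from -0.0762 to 0.318 for *ITCH*. The sign changed without replicate 9 of the low group for *RALY*, *AHCY* and *ITCH*, and in the high group alone for *RALY* (0.187) and *ITCH* (-0.0905). These cows had 17 to 41 counts of *ASIP*, and the variance of its level was 2.34 times that of counting.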
